A study of Mus musculus with 4 samples.

Results

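The 10 genes described here, Nr4a1, Nr4a2, Nr4a3, Nfatc1, Nfatc2, Nfatc3, Rcan1, Tox, Ppp3ca and Ppp3cb, encode the NR4A nuclear receptors and the calcineurin-NFAT pathway with its feedback. They were chosen by name, with earlier results of these data known. They were found on the arrays through the RefSeq accession of each probe. This gave 17 probes for the 10 genes, out of 18539 genes with a matched probe. In mouse Th2 cells they were measured in 4 conditions with 1 single-colour Agilent array each: cells cultured with or without SH-2251, a thioamide-related compound that lowers interleukin-5 production, and in each case either resting or restimulated through the T cell receptor for 4 h. All 4 conditions used splenic CD4 T cells of female C57BL/6J mice. During the first 2 days the cells were activated with plate-bound antibody to TCR-β (3 µg/ml) and an antibody to CD28 (1 µg/ml). IL-4 at 10 ng/ml and IL-2 at 2.5 ng/ml were present then and in the 3 days that followed, without these activating antibodies. The control culture received no SH-2251, and the SH-2251 culture received it in both phases. Its concentration is labelled as 1 µM at first and 1 mM later, whereas the methods of the study give a default dose in the nanomolar range, so the dose behind these arrays is not settled. The methods also describe naïve CD4 T cells where the labels name splenic CD4 T cells. They list an antibody to IFN-γ among the Th2 conditions as well. Restimulation used the anti-TCR-β antibody alone, again immobilized. As there was 1 array per condition, no difference below has a replicate check and no test was made.

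Engagement of the T cell receptor raises intracellular calcium, which activates calmodulin and through it the phosphatase calcineurin, whose catalytic subunits are encoded by Ppp3ca and Ppp3cb. Calcineurin removes phosphates from the NFAT transcription factors, encoded here by Nfatc1, Nfatc2 and Nfatc3, which then enter the nucleus and act with AP-1 on cytokine genes. Rcan1 encodes an inhibitor of calcineurin that is itself known as an NFAT target. The 3 Nr4a genes are immediate-early genes of T cells that encode orphan nuclear receptors, and together with Tox they are known for their part in T cell exhaustion downstream of NFAT.

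The sequences before the start sites of 3 of these genes are shown because the Nr4a genes gave the largest changes of the group and Rcan1, a textbook NFAT target, did not follow them. The windows are the 250 bases before an annotated start in RefSeq (build GRCm38.p6), written 5′ to 3′ on the strand of the gene. They cover chr15:101266596-101266845 on the plus strand for Nr4a1, chr2:57124004-57124253 on the minus strand for Nr4a2 and chr16:92400079-92400328 on the minus strand for Rcan1. The window of Nr4a2 lies outside the outer bounds of the gene, whereas those of Nr4a1 and Rcan1 lie before starts inside these bounds. In the Nr4a sequences the capitals mark TGACG or its reverse complement CGTCA, a core of the site bound by CREB and ATF factors. In Rcan1 they mark GGAAA (the core bound by NFAT, reverse TTTCC), TGACGTCA (the full CREB/ATF site, which holds TGACG on both strands) and TGANTCA (the AP-1 site).
Nr4a1: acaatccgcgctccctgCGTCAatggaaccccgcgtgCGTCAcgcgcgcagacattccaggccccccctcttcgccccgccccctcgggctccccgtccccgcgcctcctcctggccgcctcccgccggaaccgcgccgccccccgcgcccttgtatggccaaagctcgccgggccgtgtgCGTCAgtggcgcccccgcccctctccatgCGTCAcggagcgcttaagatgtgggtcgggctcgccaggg
Nr4a2: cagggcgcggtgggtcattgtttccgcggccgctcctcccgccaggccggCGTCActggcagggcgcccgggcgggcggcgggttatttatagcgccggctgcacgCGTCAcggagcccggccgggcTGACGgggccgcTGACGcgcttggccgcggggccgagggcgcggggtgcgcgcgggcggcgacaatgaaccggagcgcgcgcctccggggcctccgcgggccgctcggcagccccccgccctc
Rcan1: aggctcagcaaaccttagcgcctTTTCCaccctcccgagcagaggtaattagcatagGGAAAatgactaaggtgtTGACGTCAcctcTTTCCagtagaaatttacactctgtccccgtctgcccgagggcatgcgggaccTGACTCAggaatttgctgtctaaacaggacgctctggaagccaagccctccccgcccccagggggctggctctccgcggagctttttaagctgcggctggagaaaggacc

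Of the 10 genes, 7 had an entry in the promoter table, with 10 start sites among 32851. The window of Nr4a1 held 4 matches to TGACG on either strand and that of Nr4a2 also held 4. The window of Nr4a3 held 4 as well, although 227 of its bases lie inside the outer bounds of the gene. At least 1 match was found in 17.8% of all 32851 windows and at least 4 in 0.137%, a limit set after the matches had been counted. The Rcan1 window printed above held 3 matches to GGAAA, which occurs at least once in 55.6% of all windows. It also held 1 match to TGACGTCA, which occurs in 1.55% of windows, and 1 to TGANTCA, which occurs in 6.75%. The window before the outer start of Rcan1 held none of the motifs searched. AAAGGTCA, the site to which NR4A proteins bind as monomers, occurs in 1.34% of windows and was in none of the windows of these genes. These matches describe the letters in the windows and do not show binding.

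Levels are given as the log2 intensity of a probe minus the 75th percentile of all probes on the same array, so that 0 is the 75th percentile. A difference is the subtraction of 2 such levels, and the technical SD beside it is the scanner software's error estimate, which covers error within the arrays only. Probes differ in how brightly they hybridise, so a level is compared only with that of the same probe on another array. The scanner software called 13 of the 17 probes well above background on all 4 arrays and 3 on none. By their brightest probe, 8 of the genes were well above background on all 4 arrays, Nr4a3 on the 2 restimulated arrays and Tox on none. A probe that was well above background on only 1 of 2 arrays gives a lower bound of the fold. The arrays measure RNA from a whole culture, in which fewer cells expressing a gene and less RNA per cell cannot be told apart.

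**Figure D1:**
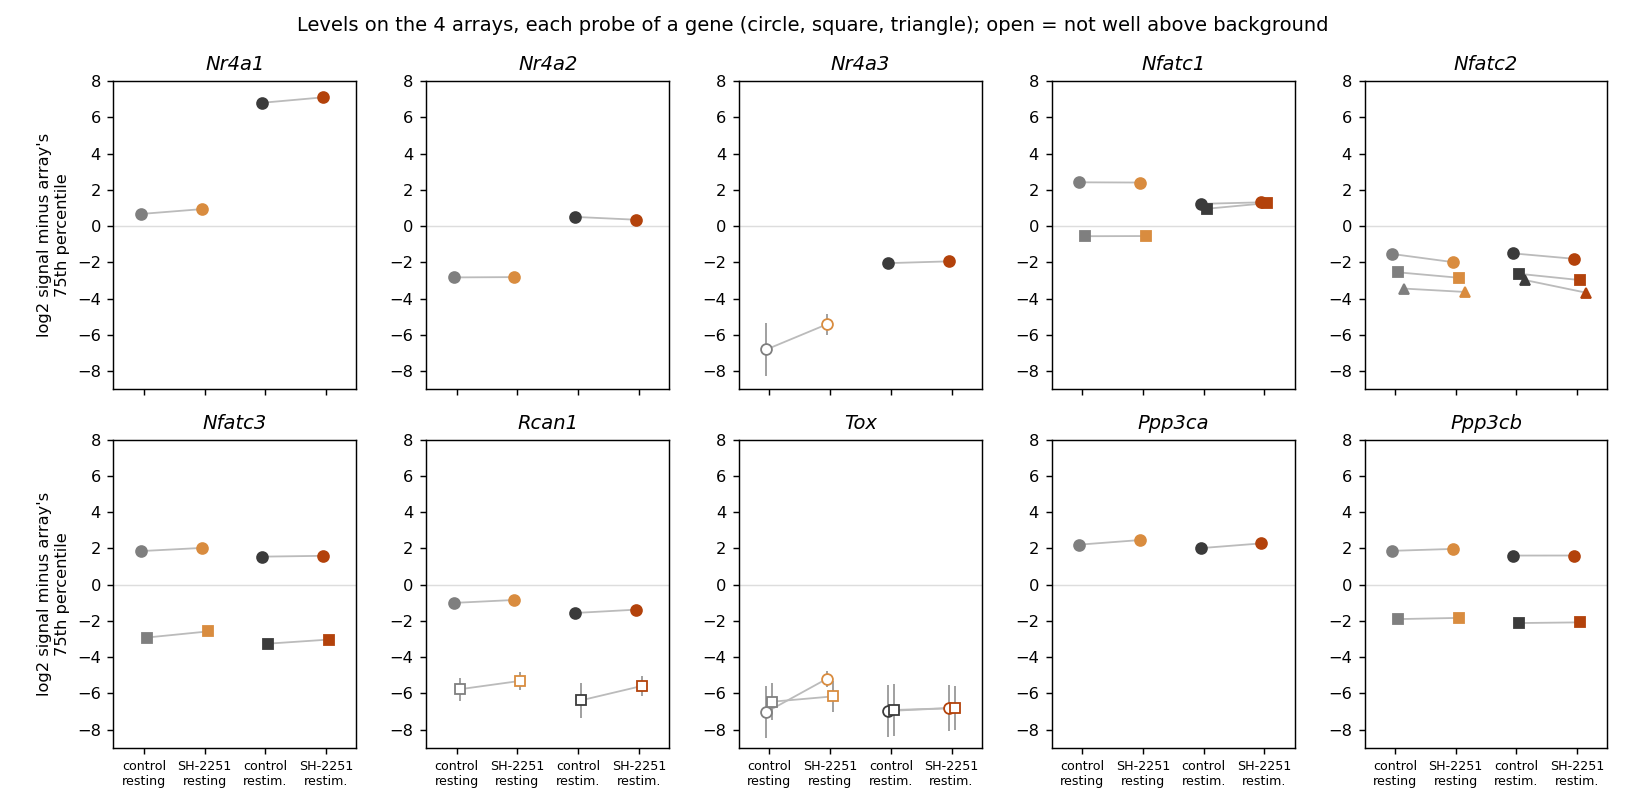
Level of each probe of the 10 genes on each array (y axis, log2 signal minus the 75th percentile of the array; x axis, the 4 conditions), with 1 symbol shape per probe, bars for the technical SD (where larger than the symbol) and open symbols where the probe was not well above background. Nr4a1, Nr4a2 and Nr4a3 stand higher on both restimulated arrays, the 2 probes of Nfatc1 move in opposite directions, and both probes of Tox are open on all 4 arrays.

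Restimulation raised the 3 Nr4a genes in both cultures, by 70.2-fold for Nr4a1, 10.1-fold for Nr4a2 and at least 6.40-fold for Nr4a3 in the control culture, while the other members moved by little or, for Nfatc1, in opposite directions by probe. In the control culture, 3 of the 9 members compared were at least 2-fold higher after restimulation, against 7.25% of all 12767 genes compared, and 1 (Nfatc1, by its brighter probe) was at least 2-fold lower, against 7.37%. In the SH-2251 culture the same 3 of 9 were at least 2-fold higher, against 7.13% of 12621 genes, and again Nfatc1 was lower, against 7.03%. The median difference of the 9 members was -0.19 in the control culture and -0.18 in the SH-2251 culture, against -0.06 and -0.05 for all genes.

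Nr4a1, also known as Nur77, is the NR4A receptor most often used as a readout of T cell receptor signalling. Its level was 0.67 in resting control cells, 0.93 in resting SH-2251 cells, 6.80 in restimulated control cells and 7.10 in restimulated SH-2251 cells. Both restimulated arrays lay far above both resting arrays, and within each state the SH-2251 array was the higher. The restimulation difference was 6.13 (technical SD 0.204) in the control culture and 6.17 (technical SD 0.204) in the SH-2251 culture, a 71.8-fold change in the latter. Among genes measured on both arrays, this difference ranked 7 from the highest of 11851 in the control culture and 7 of 11763 in the SH-2251 culture. The intensity behind it went from 891 to 55685 units in the control culture and from 1173 to 79908 units in the SH-2251 culture, with no saturated spot.

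Nr4a2 (Nurr1) belongs to the same family. Its level was -2.83 in resting control, -2.82 in resting SH-2251, 0.51 in restimulated control and 0.35 in restimulated SH-2251 cells. The resting arrays were nearly equal, and the restimulated arrays both lay above them. The difference was 3.34 (technical SD 0.219) in the control culture, rank 42 of 11851, and 3.17 (technical SD 0.220) in the SH-2251 culture, an 8.97-fold change at rank 71 of 11763. With a normexp background correction of the raw spots these differences were 2.52 and 1.79.

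Nr4a3 (Nor1) was not well above background on either resting array, with listed levels of -6.81 in control and -5.41 in SH-2251 cells, and stood at -2.05 in restimulated control and -1.95 in restimulated SH-2251 cells. Only the restimulated levels are measurements, and they differed by 0.10 (technical SD 0.216). Against the dimmest signal well above background on each resting array, Nr4a3 was at least 6.40-fold higher in the control culture (log2 difference at least 2.68) and at least 6.52-fold higher in the SH-2251 culture (at least 2.70). With normexp the lower bound of the difference was 1.39 in the control culture and 0.16 in the SH-2251 culture. The latter bound no longer reached 2-fold, which does not show that the change was below 2-fold. When spots of uneven local background were left out of that correction, the bound in the SH-2251 culture was 1.30.

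**Figure D2:**
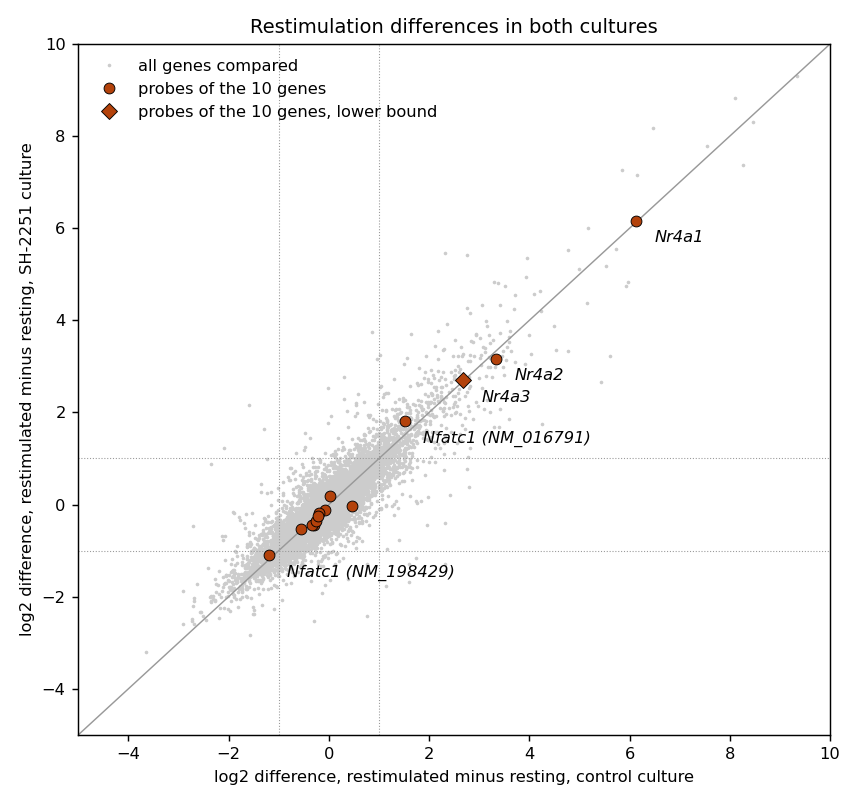
Difference between restimulated and resting cells (log2) in the control culture (x axis) and in the SH-2251 culture (y axis) for all genes compared (grey), with the probes of the 10 genes in red and a diamond for the lower bound of Nr4a3; dotted lines mark 2-fold and the diagonal marks equal differences. Nr4a1 lies at 6.13 and 6.17, Nr4a2 at 3.34 and 3.17, and the 2 Nfatc1 probes lie on opposite sides of 0.

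The NFAT genes showed no common direction after restimulation. Nfatc1 encodes NFATc1, which has a short isoform made from an inducible promoter. It was read by 2 probes designed on different RefSeq transcripts, and which isoforms each probe detects is not given in the files. The brighter probe (NM_198429) stood at 2.41 in resting control, 2.40 in resting SH-2251, 1.23 in restimulated control and 1.31 in restimulated SH-2251 cells. The second probe (NM_016791) stood at -0.56, -0.55, 0.95 and 1.27 in the same order. Restimulated cells were thus lower than resting cells by the first probe and higher by the second, in both cultures. The first probe was 2.28-fold lower in the control culture (log2 difference -1.19, technical SD 0.204) and 2.13-fold lower in the SH-2251 culture (-1.09). The second was 2.86-fold higher in the control culture (1.51, technical SD 0.205) and 3.52-fold higher in the SH-2251 culture (1.82). A mean over both probes gave 0.16 and 0.36, so the direction reported for the gene depends on the probe.

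Nfatc2 encodes NFATc2 (NFAT1), a member that is present before activation. Its brightest probe (NM_001037177) stood at -1.54 in resting control, -1.99 in resting SH-2251, -1.51 in restimulated control and -1.81 in restimulated SH-2251 cells. The restimulation differences of 0.03 and 0.18 were within the technical SD, and the SH-2251 array was the lower in both states. The second probe stood at -2.55, -2.85, -2.63 and -2.98 and the third at -3.45, -3.63, -2.98 and -3.68, in the same order. Both of these probes were likewise lower on the SH-2251 array of each state, and their restimulation differences ran from -0.13 to 0.46.

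Nfatc3 encodes NFATc3 (NFAT4). Its brighter probe stood at 1.85 in resting control, 2.02 in resting SH-2251, 1.54 in restimulated control and 1.59 in restimulated SH-2251 cells. The second probe stood at -2.92, -2.59, -3.26 and -3.03 in that order. By both probes the 2 restimulated arrays were below the 2 resting arrays. The restimulation difference was -0.31 in the control culture and -0.44 in the SH-2251 culture by the brighter probe, and -0.34 and -0.45 by the other, all below 2-fold in size.

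Neither of the 2 catalytic subunit genes of calcineurin among the members reached 2-fold in any comparison. Ppp3ca, encoding the alpha subunit, stood at 2.20 in resting control, 2.45 in resting SH-2251, 2.01 in restimulated control and 2.27 in restimulated SH-2251 cells. The restimulation difference was -0.19 in the control culture and -0.18 in the SH-2251 culture, each within its technical SD of 0.204. Ppp3cb, encoding the beta subunit, stood at 1.86, 1.97, 1.60 and 1.60 by its brighter probe and at -1.91, -1.84, -2.12 and -2.08 by the other. Restimulated cells gave differences of -0.26 and -0.22 by the 2 probes in the control culture and of -0.36 and -0.25 in the SH-2251 culture. Ppp3cc, the gene of the third catalytic subunit, is not a member and gave 0.01 in the control culture and -0.60 (technical SD 0.204) in the SH-2251 culture, with SH-2251 differences of 0.38 in resting and -0.23 in restimulated cells.

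Rcan1, the calcineurin inhibitor, was lower and not higher on the restimulated arrays. Its brighter probe stood at -1.01 in resting control, -0.85 in resting SH-2251, -1.57 in restimulated control and -1.38 in restimulated SH-2251 cells. The difference was -0.56 (technical SD 0.211) in the control culture and -0.54 (technical SD 0.209) in the SH-2251 culture, past the technical SD but short of 2-fold. The dimmer probe was called background-level on all 4 arrays, with listed levels between -6.39 and -5.31, and both probes carry the same RefSeq accession, so the transcripts from the 2 start sites cannot be told apart here. Tox, which encodes an HMG-box factor of exhausted T cells, had both of its 2 probes at background level on every array, with listed levels between -7.03 and -5.19. No fold can be given for Tox.

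SH-2251 moved none of the members by 2-fold in either state. In resting cells, 0 of the 8 members compared were at least 2-fold higher, against 2.27% of 12693 genes, and 0 were at least 2-fold lower, against 2.94%. In restimulated cells, 0 of 9 were at least 2-fold higher, against 2.68% of 12628 genes, and 0 were lower, against 2.81%. At shares of this size, 0 of 8 or 9 is near the background. Their median difference was 0.13 in resting and 0.08 in restimulated cells, against -0.06 in both states for all genes.

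Over the 13 probes measured on all 4 arrays, the SH-2251 difference ran from -0.45 to 0.33 in resting cells, with 9 probes above 0 and 5 past their technical SD. In restimulated cells it ran from -0.69 to 0.31, with 9 probes above 0 and 6 past their technical SD. The 13 probes belong to 8 genes, so some genes are counted more than once. The shares of all genes above 0 or past the technical SD were not counted, so nothing is read from these counts. Nr4a1 was 1.20-fold higher with SH-2251 in resting cells (log2 difference 0.27, technical SD 0.204) and 1.23-fold higher in restimulated cells (0.30). Nr4a2 differed by 0.02 and by -0.16, both within the technical SD. Ppp3ca was higher by 0.25 and 0.26, just past the technical SD of 0.204 in both states. Rcan1 was higher by 0.16 and 0.18, within it. With normexp the SH-2251 differences in resting cells were 0.13 for Nr4a1, 0.57 for Nr4a2 and 0.05 for Ppp3ca. When spots of uneven background were left out they were 0.26, -0.06 and 0.27.

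Nfatc2 was the one member with all of its probes lower with SH-2251 in both states. The 3 probes differed by -0.45 (technical SD 0.213), -0.30 and -0.19 in resting cells and by -0.30 (technical SD 0.211), -0.35 and -0.69 (technical SD 0.299) in restimulated cells. With normexp the resting difference of the brightest probe turned to 0.13, and it was -0.34 when spots of uneven background were left out. In restimulated cells it was -0.24 either way. For Nfatc1 the SH-2251 differences were -0.01 and 0.08 by the brighter probe and 0.01 and 0.31 by the other, with the last past its technical SD of 0.205. For Nfatc3 they were 0.17 and 0.04 by the brighter probe and 0.33 and 0.23 by the second.

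Whether the culture with SH-2251 responded differently to restimulation was read from the difference between the 2 restimulation differences. Over the 13 probes this lay between -0.51 and 0.30, with 2 past their technical SD. Over the 11514 genes measured on all 4 arrays, the 5th and 95th percentiles were -0.43 and 0.46. For Nr4a1 it was 0.03 (technical SD 0.289) and for Nr4a2 -0.17 (technical SD 0.310). The value for Nr4a2 depends on the processing. With normexp the restimulation difference of Nr4a2 fell to 1.79 in the SH-2251 culture, below that of the control culture given above. Nr4a3 has only a lower bound in each culture, so its 2 responses cannot be compared. The pair past the technical SD were the second Nfatc1 probe at 0.30 (technical SD 0.290) and the third Nfatc2 probe at -0.51 (technical SD 0.436), the dimmest of that gene.

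**Figure D3:**
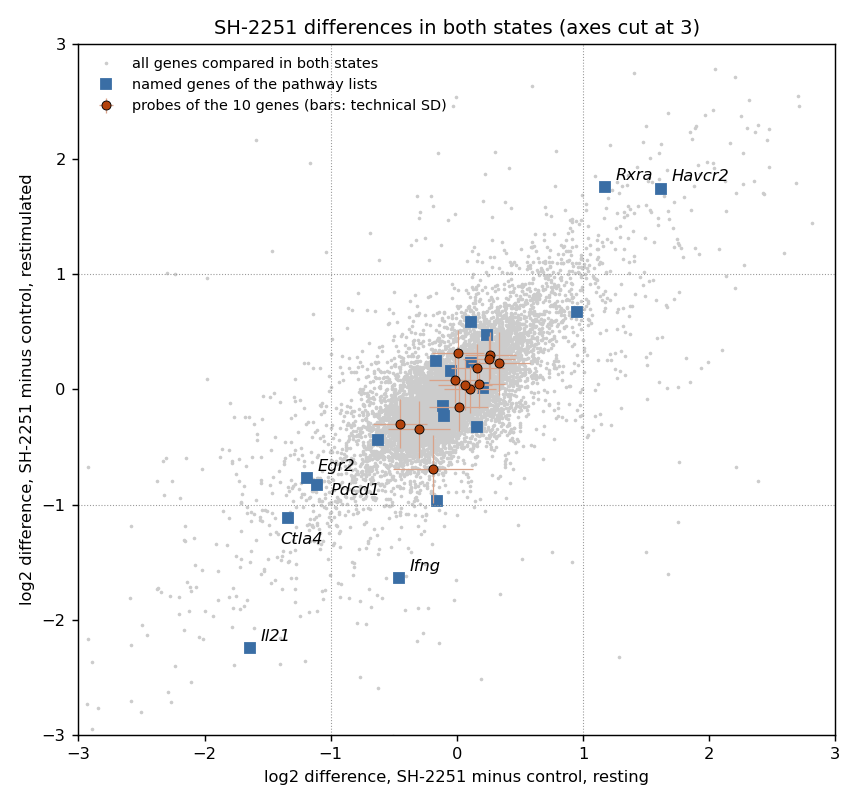
Difference between SH-2251 and control cells (log2) in resting cells (x axis) and in restimulated cells (y axis) for genes compared in both states (grey), named genes of the pathway lists (blue squares) and the probes of the 10 genes (red, with bars for the technical SD); dotted lines mark 2-fold, and 34 of 12147 genes lie beyond the axes. The red points stay between -0.69 and 0.33 on both axes, whereas Rxra and Havcr2 lie above 1 in both states and Il21 and Ctla4 below -1.

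Beside the members, 5 lists of pathway genes were described by their counts. The lists were chosen with earlier results of these data known. A count above the share of all genes is therefore a description and lends no support to a role of the list. Of the genes related by family or partnership, 9 of 13 were compared in resting cells and in each restimulation comparison and 8 in restimulated cells. Rxra, encoding the retinoid X receptor that pairs with NR4A1 and NR4A2, stood at 1.06 in resting control, 2.23 in resting SH-2251, 1.52 in restimulated control and 3.27 in restimulated SH-2251 cells. It was the 1 gene of that list to pass 2-fold upwards with SH-2251, and did so in both states. Among all genes compared, 2.27% passed at rest and 2.68% after restimulation. The SH-2251 difference of Rxra was 1.17 at rest and 1.76 after restimulation, and its second probe gave 1.08 and 1.88. With normexp the list had 0 such genes in resting cells, and 1 when spots of uneven background were left out. Nfat5, the NFAT-related factor that does not depend on calcineurin, was higher after restimulation by 1.73 in the control culture and 1.85 in the SH-2251 culture.

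Of 17 genes of calcium entry and calmodulin, 16 were compared and 0 were 2-fold changed by SH-2251 in either state, which is near the shares of all genes (2.27% higher and 2.94% lower in resting cells, 2.68% and 2.81% in restimulated cells). Orai1, encoding the pore of the store-operated calcium channel, was higher after restimulation by 1.31 and 1.72 in the control and SH-2251 cultures, and Atp2b1, encoding a plasma membrane calcium pump, by 1.09 and 1.05. Orai2 differed by -1.30 in the control culture and by -0.83 in the SH-2251 culture. Mcu, the mitochondrial calcium uniporter, rose by at least 1.30 in the control culture and differed by 0.82 in the SH-2251 culture. Among 19 calcineurin inhibitors, NFAT kinases and partners, 16 were compared and 0 were 2-fold changed by SH-2251. Restimulation in the control culture changed 0 of the 16 by 2-fold, where 7.25% of all genes were higher and 7.37% lower. With 16 genes, a count of 0 cannot be told from those shares. Csnk1e and Irf4, 2 of the 16, were 2-fold higher after restimulation in the SH-2251 culture, against 7.13% of all genes. Their differences were 1.08 and 1.07, where the control culture gave 0.88 and 0.83.

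Of 20 genes known to be driven by NFAT in activated T cells, 17 were compared in each restimulation comparison. In the control culture 10 were at least 2-fold higher, against 7.25% of all genes, and in the SH-2251 culture 12 were, against 7.13%. Their median differences were 1.91 and 1.69. In either culture 0 were at least 2-fold lower, against 7.37% of all genes in the control and 7.03% in the SH-2251 culture. With 17 genes, a count of 0 cannot be told from those shares. The members short of 2-fold included Ikzf1 at -0.65 and -0.44, Dgka at -0.33 and -0.28 and Ldha at 0.07 and 0.02. Il3 was at least 9.34 log2 units higher in the control culture, and Csf2, encoding GM-CSF, was higher by 5.73. With SH-2251, 2 of 14 were at least 2-fold lower in resting cells, namely Egr2 (-1.19) and Il21, which fell by at least 1.64 on the log2 scale, against 2.94% of all genes. That count was 0 with normexp, 1 with normexp without spots of uneven background and 1 with the filter on both arrays. In restimulated cells 4 of 17 were lower, against 2.81% of all genes, namely Il2 (-1.52), Il21 (-2.25), Ifng (-1.64) and Fasl (-1.20), and Rnf128 was higher (1.11). Il4, the defining Th2 cytokine, differed by -0.24 in restimulated cells.

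Of 10 inhibitory receptor genes linked to NFAT and NR4A, 7 were compared, and 6 were at least 2-fold higher after restimulation in the control culture and 5 in the SH-2251 culture, with medians of 1.64 and 1.53, where 7.25% and 7.13% of all genes were called. Havcr2, encoding TIM-3, was 31.9-fold higher after restimulation in the control culture and 34.8-fold higher in the SH-2251 culture. It was also higher with SH-2251, by 1.62 in resting and 1.74 in restimulated cells, although with a mean over probes, or with normexp without spots of uneven background, 0 genes of the list were 2-fold higher in resting cells. Ctla4 was lower with SH-2251, with differences of -1.34 and -1.12, and Pdcd1, encoding PD-1, gave -1.10 and -0.83. Both genes rose after restimulation, Ctla4 by 1.86 and 2.08 and Pdcd1 by 1.85 and 2.12. Beside these, the SH-2251 differences of the Nr4a genes in restimulated cells were 0.30 for Nr4a1, -0.16 for Nr4a2 and 0.10 for Nr4a3.

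**Figure D4:**
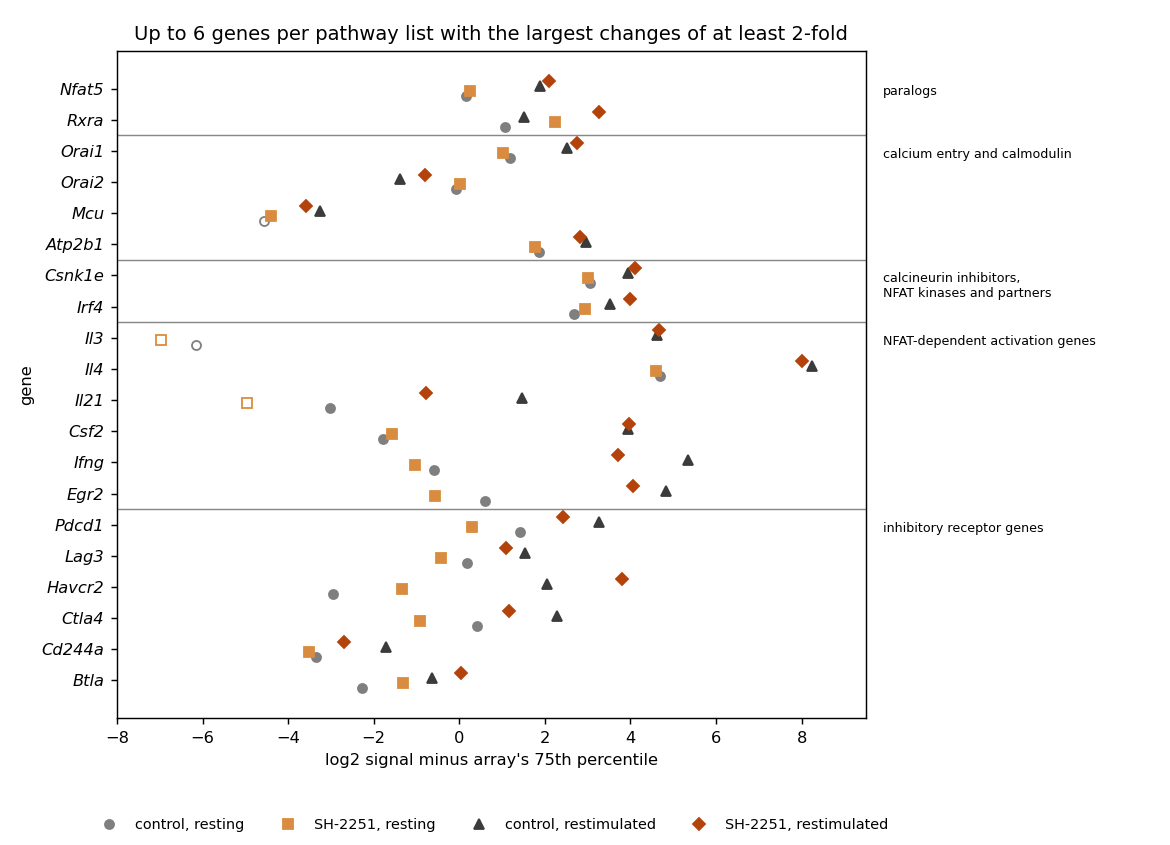
Level on each array (x axis, log2 signal minus the 75th percentile of the array) of up to 6 genes per list (y axis) with the largest changes of at least 2-fold; symbol and colour give the condition and open symbols were not well above background. Havcr2 and Rxra are higher on the SH-2251 array of each state, Ctla4 and Pdcd1 lower, and most of the activation genes are separated by restimulation.

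The genes whose pattern over the 4 arrays was most like that of an Nr4a gene were found by the distance between levels centred on each gene's own mean, over 11514 genes measured on all 4 arrays. For Nr4a1 these were Csf2 (distance 0.555), Il6 (1.03), Mmp10 (1.52), Il31 (1.59) and Il13 (1.62), and Nr4a2 came at rank 39 (2.92). For Nr4a2 they were Rgs2 (0.218), Ncs1 (0.226), Nfkbid (0.239), Pdgfb (0.243) and Cryba4 (0.257), and Nr4a1 came at rank 2528. The large rank of Nr4a1 reflects the size of its change, since the distance counts size as well as shape. Nr4a3 was left out because its resting levels are not measured. With 4 arrays such likeness is a description only.

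The 4 arrays were on 1 slide. Their 75th percentiles corresponded to 499 to 614 intensity units, and the share of probes well above background was 56.0% to 56.7%. All 5 CD4 T cell markers and all 5 Th2 markers were well above background on every array. Of the B cell markers 4 of 5 were, but not Pax5, and of the myeloid markers 2 of 4 were, at a summed level of 1.24 to 1.55, but not Lyz2 and Itgam. Ncr1, Klrb1c and Klrk1 of NK cells were not well above background on any array. The summed B cell level was higher on the SH-2251 array of each state (2.30 against 2.10 in resting and 2.45 against 1.82 in restimulated cells). The red cell sum was too, over a range of -2.10 to -0.49, as was the 1 CD8 T cell marker on the arrays (-2.07 against -3.53 and -1.85 against -2.82). Their part in the differences above was not tested.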

How the data were processed

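RNA (500 ng) of each of the 4 cultures was labelled with 1 dye and hybridised to 1 array. The authors deposited the intensity of each spot, already corrected for background by Agilent Feature Extraction (version 10.7.3.1 in the file headers, 10.7 in the labels), and a table of log2 values, which were within 0.01 of a constant of the log2 intensities for 99.6% to 99.7% of probes. From the intensities, log2 values minus the 75th percentile of each array were computed here. Control spots were dropped, as were 77 to 106 outlier spots on each array, and repeated spots of a probe were averaged. Of 41174 probes, 27198 (66.1%) matched a RefSeq gene by accession (GRCm38.p6 table, used for names). A gene was represented by its probe of highest mean signal and entered a comparison if that probe passed the software's limit over background on 1 or both arrays of the pair. A dim side was raised, where needed, to the lowest signal that passed the limit on its array. A call is a change of at least 2-fold, bounds included. There is no test, since each condition has 1 array. The members and lists were chosen with earlier results of these data known. List genes named are at most the 6 with the largest changes of at least 2-fold per list, with others named where they complete a small count. The counting was tested on simulated data with planted changes. The work was done in Python 3.11.15 (numpy 2.4.6, pandas 2.3.3, matplotlib 3.10.9); normexp was run with limma 3.58.1 in R 4.3.3.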

Additional observations from a re-analysis of the deposited data

How the results depend on the processing

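The alternatives were median centring, quantile normalization, the deposited log2 values, no filter or bound, a filter on both arrays, inclusion of outlier spots, a mean over all probes of a gene, a normexp background correction with an offset of 50 with and without spots of uneven background, and thresholds of 1.5-fold and 3-fold. Of 124 member counts and medians under these 11 alternatives, 116 stayed within 1.5 times the count or within the technical SD. With neither filter nor bound, 2 members passed 2-fold upwards with SH-2251 in resting cells (Nr4a3 and Tox, dim on both arrays) and 2 were lower after restimulation in the SH-2251 culture (Nfatc1 and Tox). The count lower after restimulation was 0 in both cultures with a mean of all probes, which averages the opposite Nfatc1 probes, and 0 in both at 3-fold. It was 0 in the SH-2251 culture with normexp, where the cause was not tested. With a mean of all probes the median restimulation difference in the control culture was 0.14, and Nfatc1 reversed to 0.16 in the control culture and 0.36 in the SH-2251 culture. Of 313 differences of single members, 292 stayed within the technical SD and 19 moved past it, 13 of them with normexp. The restimulation difference of Nr4a1 stayed between 5.99 and 6.17 over all alternatives and both cultures. Signal over background limits Nr4a3, whose restimulation folds are bounds, and Tox and the second Rcan1 probe, which have no fold. An analysis with the slide as a block was not run, since all 4 arrays shared 1 slide. No paired analysis was possible because the groups compared share 1 replicate number only; taking the resting and restimulated pairs as repeats of each other was not tried.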
